A study of Homo sapiens with 6 samples.

Results

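IFIT1, IFIT2, IFIT3, IFIT5, RSAD2 and HERC5 are 6 of the 16573 genes with a probeset of their own on exon arrays of WI38 cells depleted of MALAT1. They were taken by gene symbol, as the 54 of 232479 exon probesets that name 1 of these genes alone, and they were selected because, as a set, they lay higher with the AS1 oligonucleotide than with AS2 on these same arrays. Their levels are therefore a description, and no p-value is given for them. IFIT5 goes against that description, as its values barely differed between the groups.

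WI38 is a diploid fibroblast line from human lung. The cells received phosphorothioate-linked DNA antisense oligonucleotides at 100 nM with Lipofectamine RNAimax, in a pair of transfections a day apart. AS1 and AS2 are different oligonucleotides against MALAT1, a nuclear noncoding RNA, and Ctr is a control oligonucleotide, so that transfection and oligonucleotide load were common to all groups. Each group has 2 arrays. Nothing says whether these came from separate cultures, so p-values below measure only the spread between these samples, and there is no group of untransfected cells. The comparisons AS1 against Ctr and AS2 against Ctr share the Ctr arrays. All values are log2 intensities after RMA normalization, averaged for each gene over the probesets that carry its name alone.

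Cells that sense foreign or misplaced nucleic acid make type I interferon, which binds the receptor IFNAR1/IFNAR2. Kinases of the JAK family then activate transcription factors, among them STAT2 with IRF9, which bind interferon-stimulated response elements near the start of target genes. IFIT1, IFIT2, IFIT3 and IFIT5 are such targets and encode RNA-binding proteins with tetratricopeptide repeats; RSAD2 encodes viperin, a radical SAM enzyme against viruses, and HERC5 the main human ligase that attaches the ubiquitin-like protein ISG15 to other proteins. IRF3 can also switch on several of these genes without interferon.

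The oligonucleotides are shown because the groups are named by them. In the study's list of modified DNA oligonucleotides, read 5′ to 3′, they read as follows.
AS1: gggagttacttgccaacttg
AS2: atggaggtatgacatataat
Each is 20 bases long. AS1 holds 10 G or C bases and AS2 holds 6, and neither holds a CG dinucleotide. The longest run of G is 3 bases in AS1 and 2 in AS2. That list has more than 1 control oligonucleotide and the methods for the exon arrays do not say which was used, so none is shown for Ctr. The one listed as control holds 0 CG dinucleotides and the one listed as scr-oligo holds 1, so the CG content of Ctr is not known.

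The promoter stretches of the members are shown because the genes are known interferon targets. RefSeq windows (GRCh38.p14) from 250 bases before to 50 bases after the annotated start were searched on both strands for GAAANNGAAA, the core of the response element, which reads TTTCNNTTTC on the other strand. Of the 35116 windows in the table, 3.57% hold it. For the members, 6 of 7 windows did, in IFIT1, IFIT3, IFIT5, RSAD2 and HERC5. The first RSAD2 window had no match. For IFIT2 no window was searched. The stretches below, each of 100 bases and all on the + strand, carry the matches in capitals; matches may overlap, as they do once in HERC5.
IFIT1, chr10:89392468-89392567: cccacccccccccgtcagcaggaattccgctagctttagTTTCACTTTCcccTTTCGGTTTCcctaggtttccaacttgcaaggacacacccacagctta
IFIT3, second window, chr10:89332411-89332510: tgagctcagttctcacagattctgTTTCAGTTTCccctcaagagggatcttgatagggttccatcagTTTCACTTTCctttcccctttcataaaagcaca
IFIT5, chr10:89414478-89414577: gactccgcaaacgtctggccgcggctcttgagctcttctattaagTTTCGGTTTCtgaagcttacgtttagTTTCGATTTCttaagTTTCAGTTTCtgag
RSAD2, second window, chr2:6877587-6877686: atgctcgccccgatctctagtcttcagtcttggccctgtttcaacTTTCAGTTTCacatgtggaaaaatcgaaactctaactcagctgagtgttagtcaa
HERC5, chr4:88456974-88457073: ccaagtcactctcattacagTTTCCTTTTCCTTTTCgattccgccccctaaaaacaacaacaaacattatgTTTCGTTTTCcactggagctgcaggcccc
IFIT5 and HERC5 each have 3 matches, IFIT1 and each IFIT3 window 2, and the second RSAD2 window 1; how many matches a gene has is set beside its values here as a description only. A match is a run of letters, not a measured binding site.

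MALAT1 itself stood at 12.00 and 11.97 with Ctr, against 9.23 and 7.82 with AS1 and 8.19 and 8.13 with AS2. It fell by 3.46 with AS1 and by 3.82 with AS2 (limma adjusted p = 0.000115 and 4.2e-05), and the difference between the oligonucleotides, -0.37 ± 0.33 (SE), did not pass the test (adjusted p = 0.863). Of 11 fibroblast markers measured, 0 rose and 3 fell with AS1 and 0 rose and 7 fell with AS2, at mean levels from 7.45 to 12.08. ANOVA without moderation called 0 of them in any comparison. At a limma adjusted p under 0.05, 11.8% of all 15417 genes rose and 8.17% fell with AS1. With AS2, 11.6% rose and 9.29% fell. Of 12 leukocyte markers, at 3.42 to 7.92, none was called by limma in any comparison, with at most 1 at an unadjusted p under 0.05 and 0 by ANOVA. None of 5 epithelial markers was called either, again with at most 1 at an unadjusted p under 0.05 and 0 by ANOVA. Of 7 endothelial markers, 2 rose with each oligonucleotide (PECAM1 and ESAM) and 1 (TEK) fell with AS2; the AS2 calls of PECAM1 and TEK were lost without AS2 replicate 1. ANOVA called 0 of the endothelial markers with AS1 and 1 with AS2. Over all genes it called 142 with AS1, 436 with AS2 and 0 between AS2 and AS1. A 0 from it, here and below, therefore says little. RNA was taken from whole cultures, so a change in the share of responding cells and a change in RNA per cell cannot be told apart. What part cell state had in the members' values was not tested.

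Among the members, IFIT2 had the widest difference. IFIT2 protein binds RNA and acts against viruses, alone or in a complex with IFIT1 and IFIT3. Its values were 10.12 and 10.44 with AS1, 7.50 and 8.27 with AS2, and 5.91 and 6.08 with Ctr. The 3 groups did not overlap. AS1 lay 4.28 ± 0.22 (limma SE, 2 arrays per group) above Ctr, a 19.5-fold difference, and AS2 lay 1.89 ± 0.22 above it, or 3.70-fold.

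IFIT3 bridges the IFIT complexes and stabilises IFIT1. Its values were 9.85 and 10.10 with AS1, 7.58 and 8.40 with AS2, and 6.67 and 7.20 with Ctr. The groups were again ordered AS1, AS2, Ctr with no overlap, although the AS2 arrays were 0.82 apart. The differences from Ctr were 3.05 ± 0.25 (8.25-fold) with AS1 and 1.06 ± 0.25 with AS2. Without AS2 replicate 2 the latter was 0.65.

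IFIT1 recognises viral RNA caps that lack the methyl marks of host mRNA. Its values were 9.54 and 10.00 with AS1, 6.89 and 7.55 with AS2, and 7.01 and 7.31 with Ctr. The AS1 arrays stood clear of the other 4, whereas both Ctr arrays lay between the AS2 arrays. AS1 was 2.61 ± 0.22 (6.13-fold) above Ctr, and AS2 was within 0.06 ± 0.22 of it. IFIT1 thus separated the oligonucleotides most widely of the members, with AS2 minus AS1 at -2.55 ± 0.22, against -2.39 ± 0.22 for IFIT2 and -1.99 ± 0.25 for IFIT3.

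IFIT5, which binds RNA with a free phosphate end, did not follow the other members. Its values were 8.40 and 8.34 with AS1, 8.07 and 8.37 with AS2, and 8.22 and 8.30 with Ctr. The AS2 and Ctr values overlapped, and 1 AS2 array lay between the AS1 arrays. The differences from Ctr were 0.11 ± 0.14 with AS1 and -0.04 ± 0.14 with AS2, each smaller than its error. It lies in the same gene cluster as the other IFIT genes, and IFIT sequences resemble each other, so a share of any IFIT signal may come from a paralog; how large was not tested.

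RSAD2 converts CTP into a nucleotide that stops viral RNA polymerases. Its values were 7.27 and 7.83 with AS1, 6.21 and 6.72 with AS2, and 5.05 and 4.72 with Ctr. No groups overlapped, and of the members RSAD2 kept the oligonucleotides nearest to each other apart from IFIT5. AS1 lay 2.66 ± 0.22 (6.34-fold) and AS2 1.58 ± 0.22 (2.99-fold) above Ctr, and AS2 minus AS1 was -1.09 ± 0.22.

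HERC5 values were 6.42 and 6.74 with AS1, 4.96 and 5.48 with AS2, and 4.31 and 4.16 with Ctr. These groups too were ordered AS1, AS2, Ctr. The differences from Ctr were 2.35 ± 0.18 (5.09-fold) with AS1 and 0.99 ± 0.18 (1.98-fold) with AS2, and AS2 minus AS1 was -1.36 ± 0.18. Of the 23 HERC5 probesets 13 were dim, with a mean under 5.44, the lowest 25% of all probesets. With the median of the probesets in place of their mean, AS1 minus Ctr was 3.07.

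Over the 6 members, the median difference was 2.64 for AS1 minus Ctr, 1.02 for AS2 minus Ctr and -1.67 for AS2 minus AS1, where all 15417 genes tested had medians of -0.05, -0.03 and 0.01. AS2 replicate 2 was above AS2 replicate 1 in all 6 members, and AS1 replicate 2 was above AS1 replicate 1 in all but IFIT5. The median for AS2 minus Ctr was 1.36 without AS2 replicate 1 and 0.69 without AS2 replicate 2.

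**Figure D1:**
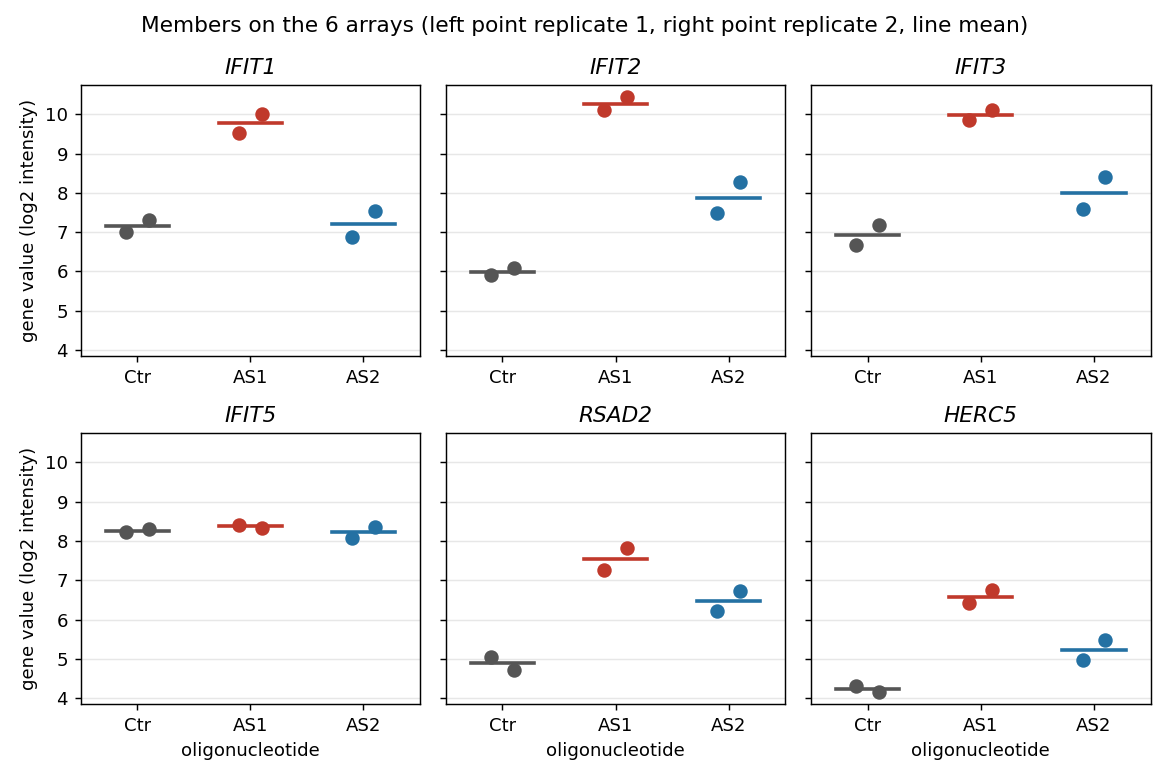
Gene value (y axis, log2 intensity) of each member on the 2 arrays of Ctr, AS1 and AS2 (x axis), with a line at the group mean. IFIT2, IFIT3, RSAD2 and HERC5 step down from AS1 to AS2 to Ctr; IFIT1 is high with AS1 only, and IFIT5 stays between 8.07 and 8.40.

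The probesets show how evenly each gene moved along its length. Both AS1 arrays lay above both Ctr arrays in 46 of the 54 probesets, where 24.9% of all probesets do so. Both AS2 arrays lay above both Ctr arrays in 32 (25.2% of all probesets), and both AS1 arrays above both AS2 arrays in 46 (17.9%). As the members were selected on these comparisons, nothing is read from those counts.

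In IFIT1 all 8 probesets were higher with AS1 than with Ctr on both arrays, by 2.20 to 3.17, and with AS2 the differences ran from -0.18 to 0.32. The flat AS2 value of IFIT1 is therefore shared by its exons. All 6 IFIT2 probesets were higher with each oligonucleotide, by 3.21 to 4.94 with AS1 and by 0.87 to 2.52 with AS2. IFIT3 has 3 probesets, at 2.67 to 3.39 with AS1 and 0.40 to 1.53 with AS2. The 6 IFIT5 probesets stayed between -0.11 and 0.29 with AS1, so none of them lay far from the gene mean.

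RSAD2 and HERC5 were uneven. RSAD2 probeset 2468357, the first by number, differed from Ctr by 0.78 with AS1 and by 0.00 with AS2. Probeset 2468368, the seventh of the 8, differed by 6.20 (73.4-fold) and 4.67 (25.5-fold). It was at 3.17 on average with Ctr, 7.84 with AS2 and 9.36 with AS1, so Ctr cells gave it a dim signal and the fold depends on that low value. The step between AS2 and AS1 was steadier along RSAD2, from -0.78 to -1.53.

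In HERC5, the first 2 probesets, 2735410 and 2735411, were bright in every group (means over the arrays of 7.26 and 8.81) and differed from Ctr by -0.26 and -0.09 with AS1. The last, 2735444, was dim at 3.41 and differed by -0.21. The 20 between them were all higher with AS1 than with Ctr on both arrays, up to 4.38 in probeset 2735423, and 17 of them were higher with AS2. Probeset 2735423 was dim in control cells, at 2.84 and 3.31 with Ctr, so the size of its difference depends on that low value and no fold is given. Whether the first 2 read HERC5 transcripts or other RNA was not tested.

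**Figure D2:**
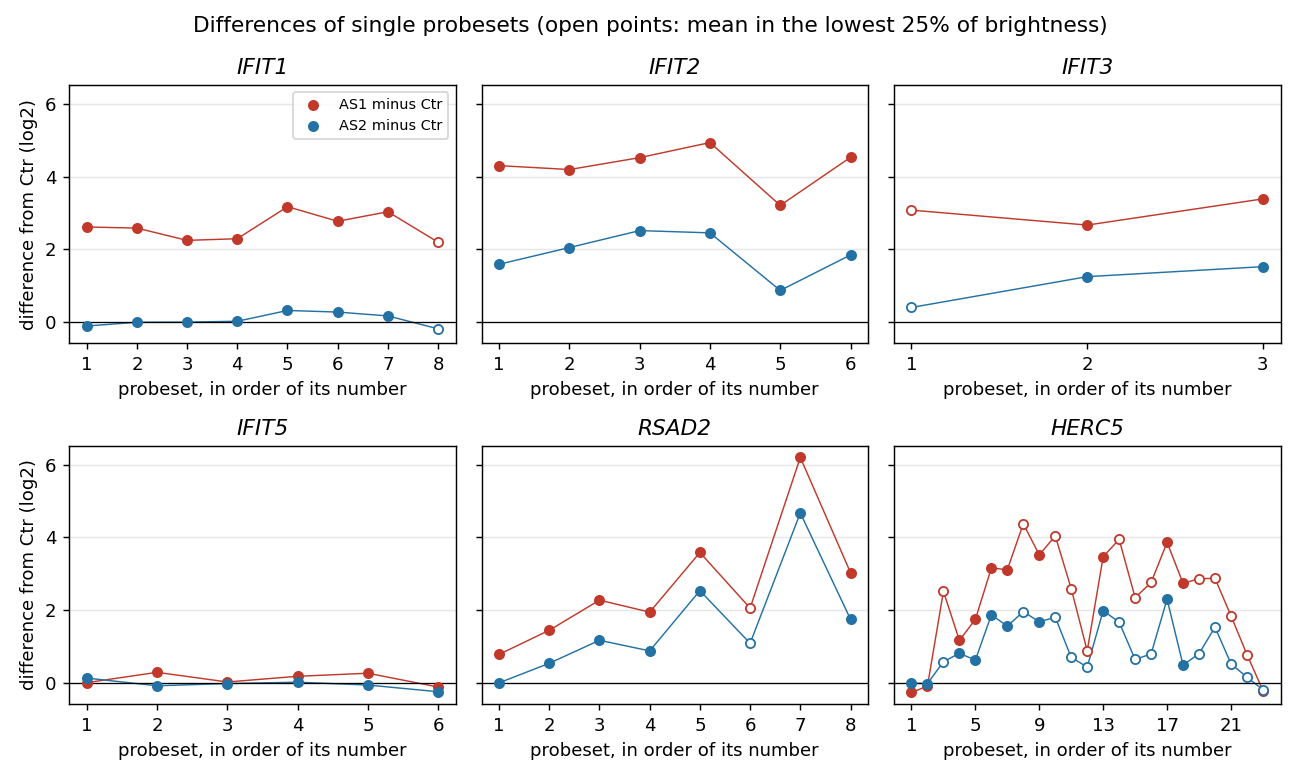
Difference from Ctr (y axis, log2) of every probeset of each member with AS1 and AS2, in order of probeset number (x axis); open points have a mean in the lowest 25% of brightness. With AS1 the differences ran from 2.20 to 3.17 in IFIT1, from 3.21 to 4.94 in IFIT2 and from 0.78 to 6.20 in RSAD2. The outermost HERC5 probesets lie near 0.

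Over the 6 arrays, the profile of each member was correlated with the mean of the others, as a description, since the arrays fall into 3 groups that set much of the likeness. HERC5 (r = 0.994), IFIT3 (0.992) and IFIT2 (0.991) were the most alike, followed by RSAD2 (0.941) and IFIT1 (0.909), with IFIT5 at 0.565. Among 1508 genes outside the set that span at least 1 log2 unit, those closest to the mean profile of the members were LRP5L (r = 0.996), PYROXD1 (0.992), EDNRB (0.987), OASL (0.979) and PMAIP1 (0.969), then RAB31, CABYR, LY96, UVRAG and PCLO (0.962). OASL, a catalytically inactive relative of the oligoadenylate synthetases, is the only one of these genes on the list of interferon-stimulated genes used below. PMAIP1, which encodes the death protein NOXA, rose by 1.27 with AS1 and 0.70 with AS2. Its difference between the oligonucleotides was not called (limma adjusted p = 0.119). OASL was 7.34 and 7.87 with AS1, 6.27 and 6.41 with AS2, and 5.81 and 5.49 with Ctr.

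The genes listed directly beside the members were compared to see whether the differences ran on into them. CMPK2, the neighbour of RSAD2 and itself an interferon-induced kinase, was 6.93 and 7.22 with AS1, 7.28 and 6.98 with AS2, and 7.32 and 7.17 with Ctr. Its groups overlapped, and its difference of -0.17 ± 0.16 with AS1 did not pass the test (limma adjusted p = 0.500). SLC16A12, beside IFIT5, fell by 0.85 with AS1 and by 0.83 with AS2 (adjusted p = 0.0035 and 0.00338). IFIT1B and the other listed neighbours, among them those of HERC5, were not analysed here. Genes further along the chromosome were not compared as neighbours. HERC6, which rose by 1.54 with AS1, was not one of the genes listed directly beside HERC5 and is described below.

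The rest of the interferon pathway was read from ligands to targets, with calls at a limma adjusted p under 0.05 over 15417 genes, of which 11.8% rose and 8.17% fell with AS1, and 11.6% rose and 9.29% fell with AS2. Between AS2 and AS1, 0.571% were higher and 0.506% lower with AS2. IFNB1, the interferon that fibroblasts make, was 3.51 and 3.07 with AS1, 2.98 and 2.78 with AS2, and 3.09 and 2.86 with Ctr. These are dim values. Those of each oligonucleotide overlap with Ctr, while both AS1 arrays lie above both AS2 arrays. Neither the difference of 0.31 ± 0.17 between AS1 and Ctr (adjusted p = 0.244) nor that of -0.41 ± 0.17 between AS2 and AS1 (adjusted p = 0.452) was called. Of 7 interferon genes measured, 0 were called with AS1 (1 at an unadjusted p under 0.05, 0 by ANOVA). With AS2 1 was called, IFNE, which rose by 1.15 ± 0.16 (adjusted p = 0.00064), while ANOVA called 0. IFNE was dim too, at 4.70 and 4.46 with AS2 and 3.44 and 3.43 with Ctr, where the lowest 25% of genes lie under 5.65.

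Of 9 interferon receptors and kinases, 1 rose and 1 fell with AS1, and 1 rose and 2 fell with AS2. The receptor chain IFNAR1 was 8.10 and 7.85 with AS1, 7.61 and 7.92 with AS2, and 9.04 and 9.03 with Ctr. It fell by 1.06 and 1.27 (adjusted p = 0.000967 and 0.000257), while IFNGR1, a chain of the interferon gamma receptor, rose by 0.97 and 0.67. Of 10 STAT and IRF factors, 0 were called with AS1 (2 at an unadjusted p under 0.05, 0 by ANOVA) and 2 fell with AS2, STAT2 by 0.66 and IRF9 by 0.46.

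Among 22 nucleic acid sensors and adaptors, 5 rose and 2 fell with AS1, and 1 rose and 3 fell with AS2. IFIH1, which encodes MDA5, a sensor of long double-stranded RNA, was 6.46 and 6.31 with AS1, 4.96 and 5.08 with AS2, and 4.84 and 4.78 with Ctr. Like IFIT1, it stood apart with AS1 alone: it rose by 1.58 ± 0.13 (adjusted p = 4.58e-05), AS2 differed from Ctr by 0.21 ± 0.13 (adjusted p = 0.317), and AS2 was lower than AS1 by 1.36 (adjusted p = 0.000863). RIGI, the sensor of short RNA with triphosphate ends, was 7.53 and 7.76 with AS1, 6.38 and 6.74 with AS2, and 7.74 and 7.59 with Ctr. It fell by 1.11 with AS2 (adjusted p = 0.000755) and differed by -0.02 ± 0.16 with AS1. TLR9, the receptor for DNA with CG dinucleotides, was not called (0.16 ± 0.18 with AS1 and 0.33 ± 0.18 with AS2), and STING1, the adaptor of DNA sensing, fell by 0.64 and 1.10.

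HERC5 works at the end of a chain that passes ISG15 to proteins. ISG15 was 7.70 and 8.02 with AS1, 7.75 and 7.70 with AS2, and 7.68 and 7.54 with Ctr, and it was not called (0.25 ± 0.15 with AS1, adjusted p = 0.275). The activating enzyme UBA7 fell by 1.21 and 1.27 (adjusted p = 0.000452 and 0.000256), and neither the conjugating enzyme UBE2L6 nor the protease USP18 was called. HERC6, a relative of HERC5, was 6.62 and 7.37 with AS1, 5.29 and 5.84 with AS2, and 5.41 and 5.50 with Ctr. It rose by 1.54 ± 0.24 with AS1 (adjusted p = 0.0015), with AS2 at 0.11 ± 0.24. Of the 6 measured genes of ISG15 conjugation, 1 rose and 1 fell with AS1, 0 rose and 1 fell with AS2, and 1 was lower with AS2 than with AS1. Of the 5 other HERC genes, 1 rose and 2 fell with AS1 (HERC3 and HERC4) and 1 fell with AS2. The lists overlap, so their counts are not separate. HERC6 is the gene that rose in each of these lists. It also counts in the wider list below, as do UBA7, IFIH1 and RIGI.

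In the wider list of interferon-stimulated genes, without the members, 14 of 71 measured rose and 8 fell with AS1, and 7 rose and 18 fell with AS2. The median differences were -0.02 and -0.09, beside -0.05 and -0.03 over all genes tested. OASL rose by 1.95 ± 0.18 with AS1 and 0.69 ± 0.18 with AS2, IFI44 by 1.67 ± 0.16 with AS1, and SAMD9, a restriction factor for poxviruses, by 1.45 ± 0.14 and 0.82 ± 0.14. MX1, the dynamin-like antiviral GTPase, rose by 0.87 ± 0.22 with AS1 (0.47 and not called without AS1 replicate 2), and GBP2, a guanylate-binding protein, fell by 1.41 and 1.68; MX1 and GBP2 were singled out after their values were seen. With the methods' threshold, over 2-fold at an unadjusted p under 0.001, applied to limma p-values, 6 of the list were higher with AS1 and 1 with AS2. ANOVA without moderation, at an adjusted p under 0.05, called 1 and 0 of them higher.

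Between the oligonucleotides, 7 of the 71 were lower with AS2 than with AS1 and 0 higher. They were IFI44 (-1.53), HERC6 (-1.43), IFIH1 (-1.36), EPSTI1 (-1.30), OASL (-1.26), CXCL10 (-1.15) and RIGI (-1.09), with EPSTI1 and CXCL10 named after their values were seen. In IFI44, HERC6 and IFIH1 AS1 was raised against Ctr and AS2 was not called, whereas RIGI and EPSTI1 fell with AS2 and were not called with AS1. Without AS2 replicate 1 the count was 0, and without AS2 replicate 2 it was 2, IFIH1 and IFI44; 26 genes of the list had an unadjusted p under 0.05, and ANOVA without moderation called 0. With medians over probesets the count was 2, IFIH1 and CXCL10.

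**Figure D3:**
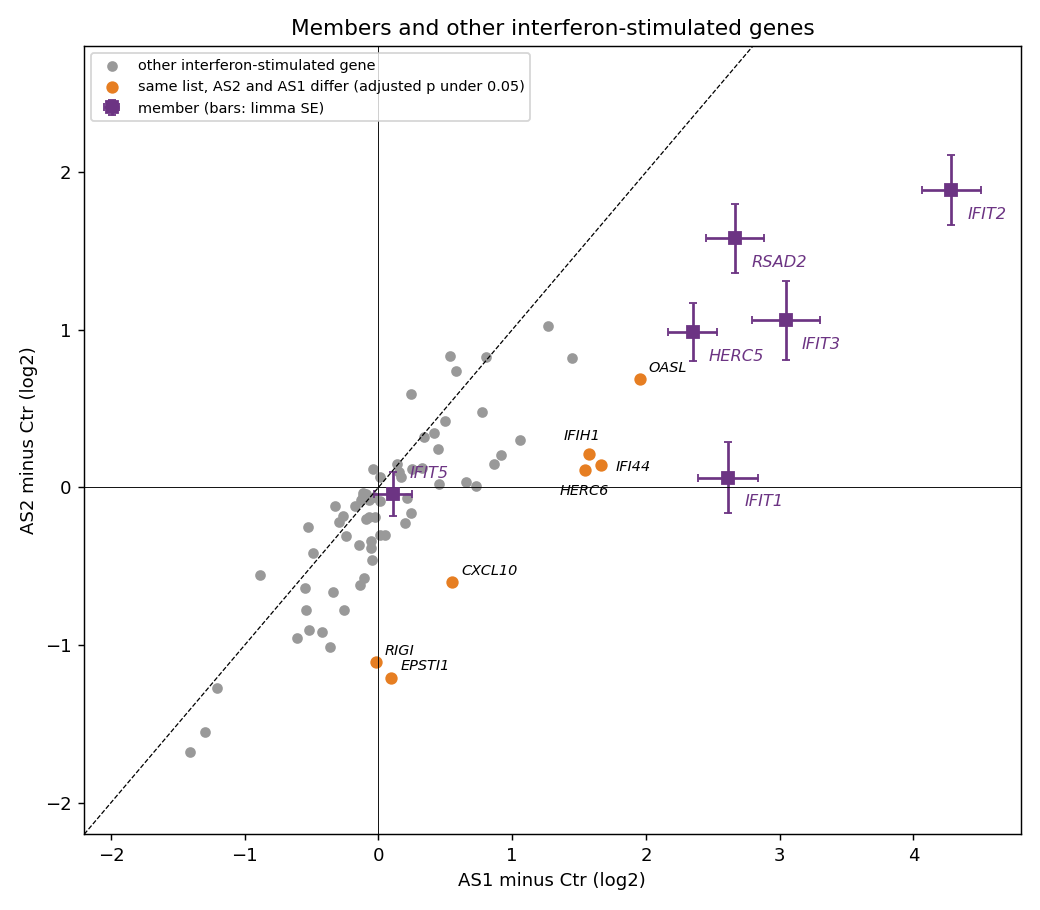
Difference from Ctr with AS1 (x axis, log2) and with AS2 (y axis, log2) for the 6 members (squares, bars are the limma SE) and 71 other interferon-stimulated genes (circles, 7 of them orange where AS2 and AS1 differed). On the dashed line both are equal; 5 members lie below it, with AS1 at 2.35 to 4.28, and IFIT5 lies near 0. The axes share the Ctr arrays.

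Genes around the pathway moved in both directions. Of 20 NF-kappaB target genes, 6 rose and 2 fell with AS1, and 3 rose and 3 fell with AS2. The chemokine gene CXCL8 rose by 2.31 ± 0.21 and 1.50 ± 0.21, PTGS2, which encodes the inducible cyclooxygenase, by 1.72 ± 0.13 and 0.98 ± 0.13, and the adhesion gene VCAM1 fell by 1.68 with AS1 and fell by 1.79 with AS2. Of 15 brakes on interferon signalling, 1 rose (TNFAIP3, by 1.25) and 1 fell (SOCS1, by 0.81) with AS1, and 2 rose and 2 fell with AS2. Of 15 antigen presentation genes, which interferon also raises, 2 rose and 3 fell with AS1, and 2 rose and 2 fell with AS2, with B2M, the light chain of MHC class I, at 0.62 ± 0.18 and 0.23 ± 0.18.

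**Figure D4:**
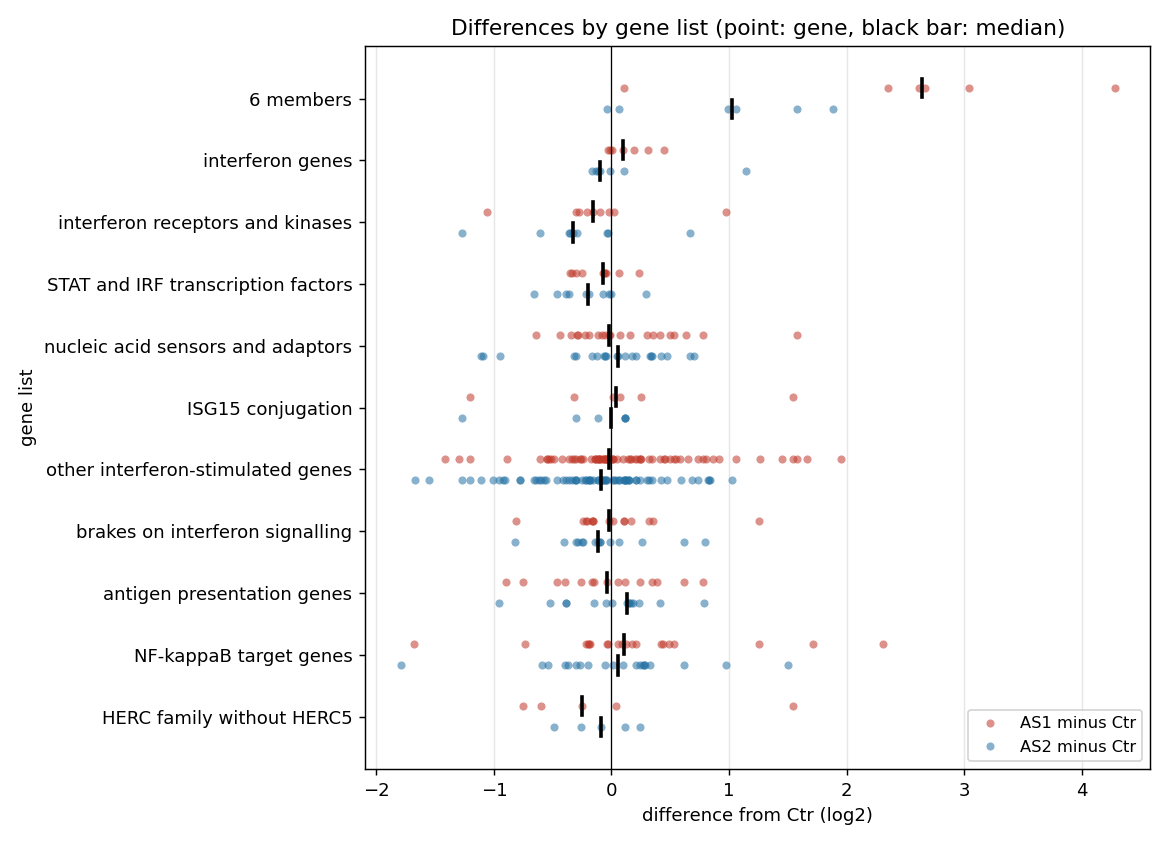
Difference from Ctr (x axis, log2) of every measured gene with AS1 (red) and AS2 (blue) in the 6 members and in 10 gene lists (y axis), with the median as a black bar. The median of the members is 2.64 with AS1 and 1.02 with AS2, and those of the lists lie between -0.33 and 0.13.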

How the data were processed

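The authors hybridised 100 ng of amplified total RNA per sample to Affymetrix exon arrays and deposited log2 values, which RMA and Partek produced; no source read here states the versions of these tools or the build behind the platform annotation. The log2 values were taken as deposited, for 232479 probesets on 6 arrays with medians of 7.34 to 7.36. The number of arrays limits the precision. In the platform annotation, which can be old, 216780 probesets name 1 gene, 2335 several and 13364 none.

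Probesets naming 1 gene were averaged per gene and array. Genes with at least 3 (15417) entered 1 limma fit of the 3 groups (limma 3.58.1, R 4.3.3), with Benjamini-Hochberg adjustment and calls under 0.05. The fit was tested on simulated data. Promoters were read from a RefSeq table and oligonucleotides from the study's list.

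The members and gene lists were chosen with earlier results of these data known. The rule for names took the members, MALAT1, up to 5 called genes per pathway list by the size of AS1 minus Ctr, 19 pathway genes whatever their values, the 10 genes most like the members, and the members' neighbours; the results of some are left out. Settings tried were medians over probesets, a filter on dim probesets or on dim genes, a minimum of 1 probeset, renewed quantile normalization and median centring. Others were the methods' ANOVA and threshold, trend and robust options, the replicate number as a block, fits without the third group, and leaving out each array. The ANOVA, without moderation, was called at an adjusted p under 0.05. The threshold, over 2-fold at an unadjusted p under 0.001, was applied to limma p-values.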

Additional observations from a re-analysis of the deposited data

Results flagged for a closer look

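Between AS2 and AS1, 166 of all 15417 genes tested differed at a limma adjusted p under 0.05 (0.571% higher and 0.506% lower with AS2). Among the named genes outside the set, 8 did. Genes listed only for their likeness to the members are not counted, since they were picked by a profile in which AS1 lies above AS2. The differences of AS2 minus AS1 were -1.36 in IFIH1, -1.43 in HERC6, -1.26 in OASL, -1.53 in IFI44, -0.74 in PTGS2 and -1.09 in RIGI, and, in genes named after their values were seen, -1.30 in EPSTI1 and -1.15 in CXCL10. In each of the 8 both AS2 arrays lay below both AS1 arrays.

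Without AS2 replicate 1 none of the 8 passed the threshold, with adjusted p from 0.0578 to 0.370, and none did with the methods' ANOVA (0.267 to 0.527). Without AS2 replicate 2 only IFIH1 and IFI44 passed, and with medians over probesets only IFIH1 and CXCL10. PTGS2 also missed it without AS1 replicate 1 (adjusted p = 0.0587), with the replicate block (0.0778) and at the methods' threshold. EPSTI1 missed it with brighter probesets only (0.0745) and with at least 1 probeset per gene (0.0519). The cause was not tested.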

How the results depend on the processing

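For AS1 minus Ctr, the median over the members stayed within the replicate spread in every setting tried. Leaving out an array moved the median of the members between 0.69 and 1.36 for AS2 minus Ctr and between -2.01 and -1.34 for AS2 minus AS1, the ends coming from AS2 replicates 2 and 1. Single member values stayed within their replicate spread in 163 of 180 settings and moved beyond it in 17.

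Counts of called genes were 3082 (AS1 against Ctr), 3224 (AS2 against Ctr) and 166 (AS2 against AS1). They were 142, 436 and 0 with the ANOVA without moderation, called at an adjusted p under 0.05. At the methods' threshold on limma p-values they were 525, 637 and 57. The ANOVA was not run with that threshold, as it was in the methods. For AS2 against AS1 the count was 31 with medians over probesets, 110 with at least 1 probeset, 398 with trend and robust options and 274 without the Ctr group. Leaving out an array gave 1259 to 3581 for AS2 against Ctr and 13 to 274 for AS2 against AS1.

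Of the other interferon-stimulated genes, 14 rose with AS1, 7 rose with AS2 and 7 differed between AS2 and AS1. The ANOVA gave 1, 0 and 0. In both directions together, genes of the list at an unadjusted p under 0.05 numbered 34, 34 and 26 in limma and 21, 29 and 18 by ANOVA. The methods' threshold gave 6 and 1 for the first pair. With brighter genes only, 8 rose with AS1 and 4 differed, the filter leaving fewer genes to test. Those that differed were 2 with medians over probesets, 11 with trend and robust options and 0 to 14 with an array left out (0 without AS2 replicate 1, 14 without AS1 replicate 1).

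Deviations from the group mean of arrays with the same replicate number correlated at 0.39 for AS2 and Ctr. The correlations were negative with AS1, at -0.34 for AS1 and AS2 and -0.51 for AS1 and Ctr. The main fit used no pairing, and whether arrays of different groups shared a replicate effect was not tested. With the replicate block, 84 genes differed between AS2 and AS1. With the block and the AS1 numbers crossed, a choice made after seeing the data, the counts were 4944, 4884 and 553, with 11 interferon-stimulated genes higher with AS2 and 11 differing. Of 2682 values of named genes outside the set, 2396 kept their side of the threshold, 215 fell short of it and 71 newly passed it. Direction was compared only where the main fit or the alternative called the gene, and there 0 reversed. The causes were not tested.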
